A study of Bubalus bubalis with 6 samples.

Results

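Actin cytoskeleton genes and the genes of the serum response factor (SRF) pathway were followed in buffalo muscle stem cells (MuSCs) that were proliferating or differentiating. The genes were taken from a list of 37 symbols, and 34 of them were found by symbol among the 24616 genes of the deposited gene table. ARPC2, CNN3 and PFN1 were not found by symbol and were not analysed here. All 34 genes entered the test, which covered the 15576 genes with at least 10 counts in total, and the lowest count of any of the 34 in any sample was 925.

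The study sequenced polyA libraries of primary MuSCs isolated from fetal longissimus muscle of the water buffalo. The 3 GM samples were cells proliferating in growth medium, which is rich in fetal bovine serum, and the 3 DM samples were cells differentiating in a medium low in horse serum, to which the study moved nearly confluent cultures. The labels do not say whether each sample was a separate culture or animal, so p-values measure only the spread between these samples. Between 35615864 and 40305237 reads per sample were counted on genes.

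Actin is the protein of the thin filament, and mammals make several forms of it from separate genes. ACTB and ACTG1 encode the cytoplasmic actins of the cortex, stress fibers and cell adhesions, ACTA1 and ACTC1 the sarcomeric actins of skeletal and cardiac muscle, and ACTA2 and ACTG2 the smooth muscle actins. Developing skeletal muscle is known to use both sarcomeric forms. SRF is a transcription factor that acts on many of these genes with its cofactors MKL1 and MKL2, also called MRTF-A and MRTF-B. The cofactors bind free actin monomers, so that the state of the actin pool is known to control their entry into the nucleus.

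The labelled cell type was checked against marker genes on the scale of TMM-normalized CPM, which scales the counts of each sample to a common library size. All 6 markers of muscle stem cells and myoblasts were detected, with a summed level of 2859 to 3069 CPM in the GM samples and 2226 to 2738 CPM in the DM samples. DES, the gene of desmin, carried most of this sum, at 2274 ± 103 CPM in the GM samples and 2051 ± 323 CPM in the DM samples, and it did not pass the test. Of the others, PAX7, MYF5, NCAM1 and CDH15 fell and MYOD1 rose by the adjusted p-value. PAX7, the satellite cell factor, averaged 18.5 CPM in the GM samples and 9.77 CPM in the DM samples. MYF5, a factor of myoblasts, fell from 143 ± 6.38 CPM to 22.0 ± 3.34 CPM, while MYOD1, another myogenic factor, rose from 32.5 ± 3.10 CPM to 60.5 ± 18.8 CPM. MYOG, the factor of terminal myogenic differentiation, rose from 52.9 ± 13.3 CPM (SD, n = 3) to 167 ± 15.5 CPM. The 3 proliferation markers summed to 1120 to 1176 CPM in the GM samples and 255 to 314 CPM in the DM samples, and PCNA, the DNA replication clamp, was among them.

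Most of these cytoskeletal genes were lower in differentiating cells, and the actins divided by class. The cytoplasmic actins ACTB and ACTG1 fell 2.78-fold and 2.63-fold, while the sarcomeric actins ACTA1 and ACTC1 rose 8.83-fold and 2.48-fold. With an adjusted p-value under 0.05 in edgeR's quasi-likelihood test, 22 of the 34 genes fell (64.7%, against 31.4% of all genes tested) and 5 rose (14.7%, against 31.6%). With an absolute log2 fold change above 1 as well, 6 fell (17.6%, against 10.3%) and 2 rose (5.88%, against 15.0%). The 6 were ACTB, ACTG1, FHL2, ZYX, ACTN4 and CFL1, and the 2 were ACTA1 and ACTC1. A test against a fold change of 2 itself called 4 of the 34 genes lower and 1 higher. Of all 15576 genes tested, it called 895 lower and 1398 higher.

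The median log2 fold change (DM over GM) of the 34 genes was -0.39, and that of all genes tested was 0.03. The difference was negative for 27 genes and positive for 7. On the CPM scale the 2 groups were apart, with no overlap of any sample, for 22 genes that were lower (64.7%, against 34.3% of all genes tested) and for 5 that were higher (14.7%, against 34.5%), and these were the same 27 genes that passed the adjusted p-value. The 34 genes together took 4.06 to 4.20% of all gene counts in the GM samples and 2.58 to 2.77% in the DM samples. The exact two-sided permutation test of this share gave p = 0.1, the smallest p that 3 samples against 3 allow.

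**Figure D1:**
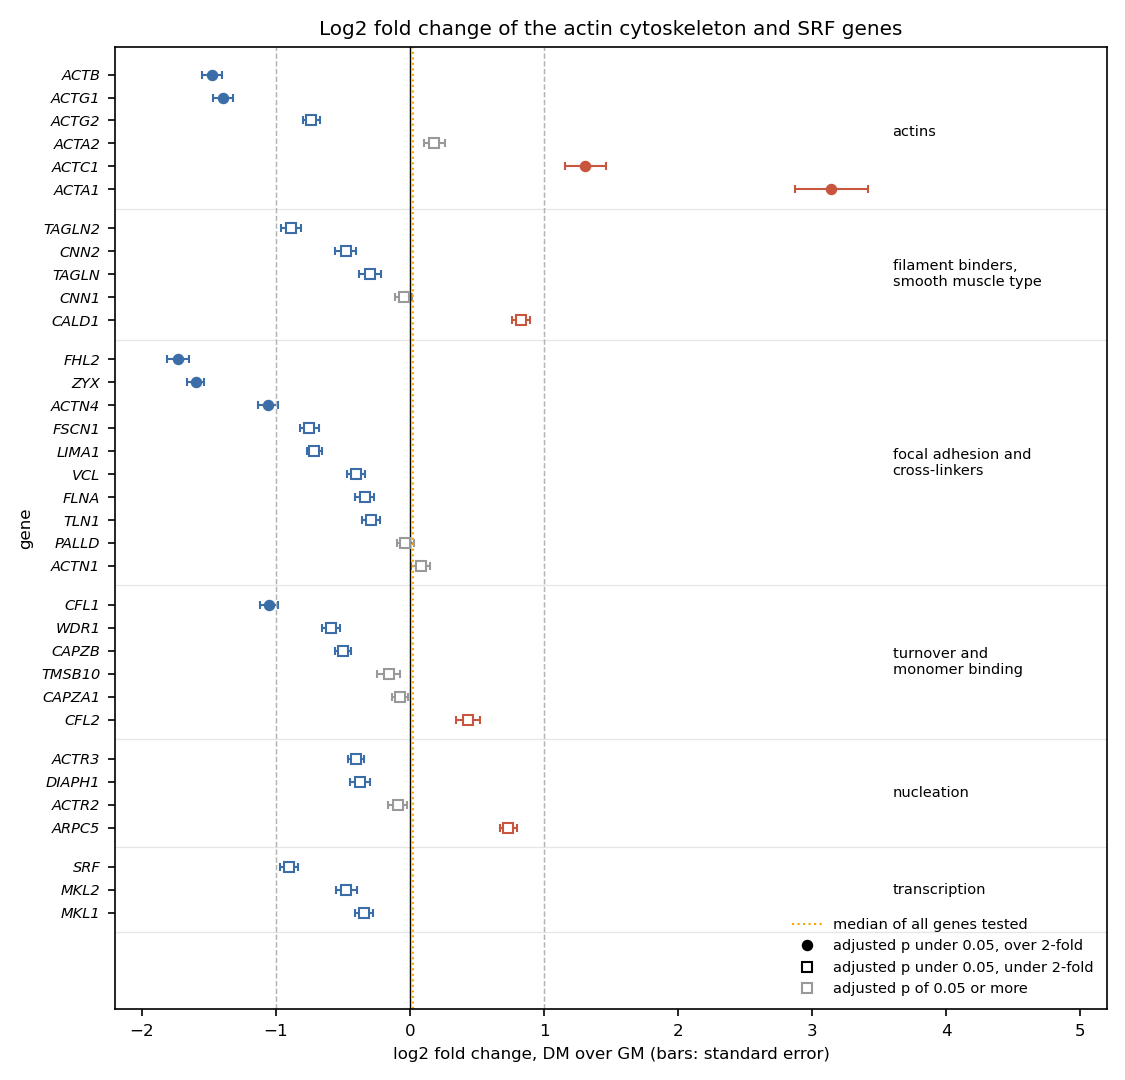
The log2 fold change (DM over GM) of each of the 34 genes is on the x axis, the genes are grouped by role on the y axis, and the bars are standard errors of the edgeR fit. Filled circles passed an adjusted p-value of 0.05 with more than a 2-fold difference (dashed lines), open colored squares passed the adjusted p-value alone, and gray squares did not; 27 of the 34 points lie below 0, and ACTA1 lies far to the right at 3.14.

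ACTB (ENSBTAG00000026199, chromosome 25, 39343633 to 39347044, plus strand) encodes cytoplasmic beta-actin, which the study took as internal control for its quantitative RT-PCR. These and all other coordinates are those of the deposited table, which lists cattle Ensembl identifiers and names no genome build. ACTB was 6352, 5917 and 6310 CPM in the GM samples and 2457, 2107 and 2111 CPM in the DM samples. Every DM sample was far below every GM sample. The log2 fold change was -1.48 with a standard error (SE) of 0.076, and the edgeR adjusted p was 6.32e-08.

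ACTG1 (ENSBTAG00000006189, chromosome 19, 51868429 to 51871276, plus strand), the gene of cytoplasmic gamma-actin, followed almost the same course. It was 9278, 8848 and 9193 CPM in the GM samples and 3809, 3313 and 3274 CPM in the DM samples, with no overlap. Its log2 fold change was -1.39 (SE 0.073, edgeR adjusted p = 6.92e-08). Per length, on the scale of the deposited RPKM, which corrects counts for gene length and library size, ACTG1 stood at 4821 ± 131 in the GM samples, where it was the highest of the 34 genes, and at 1713 ± 119 in the DM samples.

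ACTA1 (ENSBTAG00000046332, chromosome 28, 419154 to 421910, minus strand), skeletal muscle alpha-actin, was 224, 101 and 235 CPM in the GM samples and 1572, 1451 and 1925 CPM in the DM samples. GM replicate 2 was the lowest and DM replicate 3 the highest, and the groups were well apart. The log2 fold change was 3.14 (SE 0.271, edgeR adjusted p = 2.63e-06), and it was 3.02 without DM replicate 3. ACTA1 was 24th of the 34 genes by RPKM in the GM samples and 5th in the DM samples.

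ACTC1 (ENSBTAG00000005714, chromosome 10, 30361781 to 30367052, minus strand), cardiac alpha-actin, was already high in proliferating cells, at 868, 651 and 945 CPM. It was 1738, 1878 and 2491 CPM in the DM samples, where DM replicate 3 was again the highest. The log2 fold change was 1.31 (SE 0.153, edgeR adjusted p = 2.65e-05), and it was 1.15 without DM replicate 3. ACTA1 and ACTC1 were the only genes of the 34 with a coefficient of variation over 12% within a group.

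The summed myotube markers had their lowest and their highest sample in common with these sarcomeric actins. All 6 of them (MYOG, CKM, MYH3, MYH8, TNNT3 and MYLPF) were detected, and their summed level was 603, 325 and 628 CPM in the GM replicates 1 to 3 and 4062, 4313 and 6088 CPM in DM replicates 1 to 3. The lowest sum was in GM replicate 2 and the highest in DM replicate 3. MYOG alone had another highest sample, at 161, 185 and 155 CPM in DM replicates 1 to 3. MYH3, the embryonic myosin heavy chain, was 346 ± 121 CPM in the GM samples and 2064 ± 566 CPM in the DM samples. The part of myotube content in the actin values was not tested, and in bulk samples fewer cells of a type and less RNA per cell cannot be told apart.

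Of the smooth muscle actins, ACTG2 fell and ACTA2 did not pass the test. ACTG2 fell from 1459, 1374 and 1425 CPM in the GM samples to 887, 791 and 879 CPM in the DM samples, with a log2 fold change of -0.74 (SE 0.065, edgeR adjusted p = 3.21e-06). ACTA2 was 1208, 1086 and 1280 CPM in the GM samples and 1323, 1261 and 1470 CPM in the DM samples, and the groups overlapped. Its log2 fold change of 0.18 (SE 0.080) had an edgeR adjusted p of 0.0696, and DESeq2 gave an adjusted p of 0.0464. ACTA2 shares 851 bases of its span with FAS on the opposite strand, which had a mean of 641 counts in the GM samples, where ACTA2 had 47930. The 5 markers of smooth muscle and pericytes summed to 441 to 461 CPM in the GM samples and 427 to 488 CPM in the DM samples, but they moved in opposite directions. PDGFRB, a receptor of pericytes and fibroblasts, rose from 69.8 ± 2.19 CPM to 239 ± 28.9 CPM, and MYH11, the smooth muscle myosin, from 3.32 ± 0.620 CPM to 5.69 ± 0.916 CPM. SMTN, the gene of smoothelin, fell from 318 ± 17.0 CPM to 152 ± 4.90 CPM. NOTCH3 did not pass the test, and RGS5 had at most 4 counts in any sample.

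**Figure D2:**
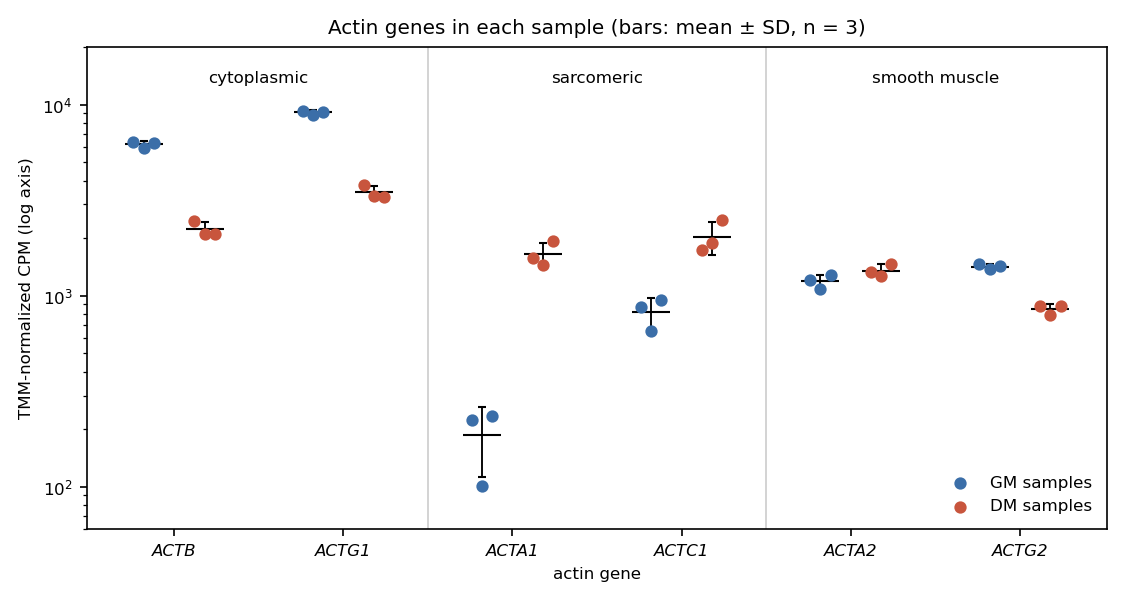
TMM-normalized CPM (y axis, log scale) is plotted for the 6 actin genes (x axis), with a blue point for each GM sample, a red point for each DM sample, and the mean ± SD of 3 samples as bars. ACTB, ACTG1 and ACTG2 are lower in every DM sample, ACTA1 and ACTC1 are higher in every DM sample, and the points of ACTA2 overlap.

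A share within a sample does not depend on the normalization between samples, so the actins were also compared as shares of their summed RPKM. The sum itself was 10271 to 11168 RPKM in the GM samples and 6258 to 7038 RPKM in the DM samples. The cytoplasmic actins made up 76.3, 78.0 and 75.7% of it in the GM samples and 47.7, 44.7 and 39.0% in the DM samples. The sarcomeric actins made up 7.11, 5.35 and 7.69% in the GM samples and 32.4, 35.5 and 41.3% in the DM samples. In DM replicate 3 the sarcomeric share was above the cytoplasmic share, and in the other 5 samples it was below.

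The smooth muscle actins held 16.6 ± 0.0374% in the GM samples and 19.8 ± 0.0559% in the DM samples, and this share had by far the smallest spread of the 3 classes. Its 2 genes moved in opposite directions, and each had a larger spread than their sum. ACTA2 held 5.51 ± 0.239% in the GM samples and 9.60 ± 0.260% in the DM samples, and ACTG2 11.1 ± 0.236% and 10.2 ± 0.316%. None of the 3 classes overlapped between GM and DM samples. The exact two-sided permutation test gave p = 0.1 for each class, the smallest p possible with 3 samples against 3, so the design cannot bring such a share under 0.05. The coding sequences of the actin genes are similar, and the division of reads between them depends on how the authors counted. Each actin's own level is therefore less certain than their sum.

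**Figure D3:**
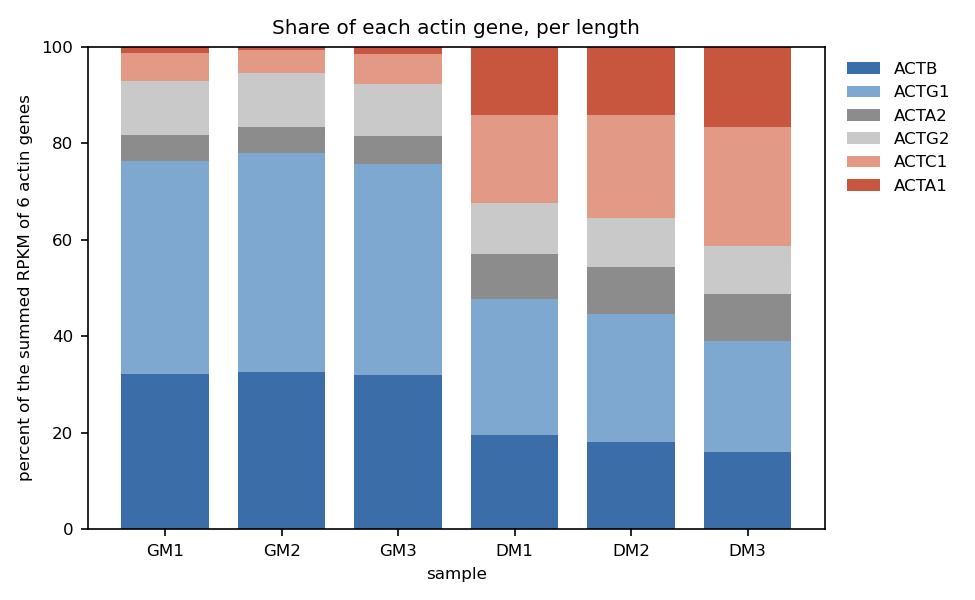
Each bar is a sample (x axis) and shows the percent of the summed RPKM of 6 actin genes (y axis) held by each gene. The blue cytoplasmic part takes 75.7 to 78.0% of the GM bars and 39.0 to 47.7% of the DM bars, and the red sarcomeric part takes 5.35 to 7.69% and 32.4 to 41.3%.

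Among 5 genes of filament-binding protein families best known from smooth muscle, 3 fell by the adjusted p-value, 1 rose and 1 did not pass. By the same rule 31.4% of all genes tested fell and 31.6% rose. The families also have members of non-muscle cells. TAGLN2 and TAGLN, the transgelins, fell by 0.89 (SE 0.075) and 0.30 (SE 0.082) on the log2 scale. CNN2, a calponin of non-muscle cells, fell by 0.48 (SE 0.077). CALD1, the gene of caldesmon, was the only one of the 5 that rose, from 734, 730 and 717 CPM in the GM samples to 1399, 1254 and 1210 CPM in the DM samples. The groups of CALD1 were far apart, with a log2 fold change of 0.83 (SE 0.067, edgeR adjusted p = 1.75e-06). CNN1, the smooth muscle calponin, was 68.0 ± 0.377 CPM in the GM samples and 65.8 ± 2.09 CPM in the DM samples, with an edgeR adjusted p of 0.521.

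The genes of focal adhesions and filament cross-linking included the largest falls of the 34. FHL2 (ENSBTAG00000001086, chromosome 11, 9253234 to 9300671, minus strand) encodes a LIM domain protein of adhesions and the nucleus that is also an SRF cofactor. It was 232, 246 and 245 CPM in the GM samples and 71.3, 66.0 and 80.5 CPM in the DM samples. This was a 3.32-fold fall (log2 fold change -1.73, SE 0.079, edgeR adjusted p = 2.98e-08).

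ZYX (ENSBTAG00000017970, chromosome 4, 107598856 to 107607834, plus strand) encodes zyxin, which gathers at adhesions and stress fibers under tension. It was 892, 967 and 933 CPM in the GM samples and 315, 316 and 293 CPM in the DM samples, a 3.02-fold fall with little spread in either group (log2 fold change -1.60, SE 0.063, edgeR adjusted p = 1.32e-08). ACTN4 (ENSBTAG00000011215, chromosome 18, 48668482 to 48741185, plus strand), a non-muscle alpha-actinin, was 1312, 1316 and 1272 CPM in the GM samples and 654, 557 and 660 CPM in the DM samples. Its log2 fold change of -1.06 (SE 0.074, edgeR adjusted p = 5.65e-07) became -0.97 without DM replicate 2, which takes it out of the 2-fold calls.

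Another 5 genes of this role fell by less than 2-fold. In all, 8 of its 10 genes fell by the adjusted p-value, against 31.4% of all genes tested. FSCN1, the bundling protein of filopodia, fell by 0.75 (SE 0.072) and LIMA1, which stabilizes stress fibers, by 0.71 (SE 0.055) on the log2 scale. VCL and TLN1, vinculin and talin of the link between integrins and actin, fell by 0.40 (SE 0.066) and 0.29 (SE 0.069), and FLNA, the cross-linker filamin A, by 0.34 (SE 0.071). The other two, ACTN1 and PALLD, overlapped between groups. ACTN1, the second non-muscle alpha-actinin, was 802, 781 and 769 CPM in the GM samples and 879, 748 and 864 CPM in the DM samples (edgeR adjusted p = 0.340). PALLD, the gene of palladin, was 342 ± 5.18 CPM in the GM samples and 334 ± 25.5 CPM in the DM samples (edgeR adjusted p = 0.689).

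Filament turnover is driven by cofilins, which sever filaments, and held in check by capping proteins and by proteins that bind free monomers. CFL1 (ENSBTAG00000021455, chromosome 29, 44638896 to 44642280, minus strand), the non-muscle cofilin, was 1296, 1348 and 1355 CPM in the GM samples and 681, 594 and 656 CPM in the DM samples. The groups did not overlap, and the log2 fold change was -1.05 (SE 0.067, edgeR adjusted p = 2.83e-07). It was -0.98 without DM replicate 2, so that the 2-fold calls came to 6 of 34 genes without that sample in place of 8.

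CFL2, the cofilin of skeletal muscle, went the other way. It was 71.1, 59.3 and 68.9 CPM in the GM samples and 81.2, 91.2 and 96.4 CPM in the DM samples. The log2 fold change was 0.43 (SE 0.088, edgeR adjusted p = 0.00151). WDR1, which helps cofilin take filaments apart, and CAPZB, the beta subunit of the capping protein, fell by 0.59 (SE 0.069) and 0.50 (SE 0.059) on the log2 scale. CAPZA1, its alpha subunit, was 216 ± 1.09 CPM in the GM samples and 205 ± 11.7 CPM in the DM samples (edgeR adjusted p = 0.326).

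TMSB10, a small thymosin that binds actin monomers, was 1700, 2013 and 1876 CPM in the GM samples and 1511, 1662 and 1834 CPM in the DM samples. The groups overlapped, and its log2 fold change was -0.16 (SE 0.086, edgeR adjusted p = 0.129). By RPKM it was second of the 34 genes in the GM samples, at 4264 ± 350, and first in the DM samples, at 3571 ± 383, where ACTG1 was second.

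New filaments are nucleated by the Arp2/3 complex, which makes branches, and by formins such as DIAPH1, which make unbranched filaments. ARPC5, a subunit of the Arp2/3 complex, rose from 119, 125 and 116 CPM in the GM samples to 203, 206 and 190 CPM in the DM samples. Its groups lay far apart, with a log2 fold change of 0.73 (SE 0.062, edgeR adjusted p = 2.28e-06). ACTR3, an actin-related core subunit of the same complex, fell by 0.40 (SE 0.062) on the log2 scale. ACTR2, the other core subunit, was 419 ± 13.7 CPM in the GM samples and 393 ± 34.4 CPM in the DM samples (edgeR adjusted p = 0.293).

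DIAPH1 (chromosome 7, 54285455 to 54437207, minus strand) fell by 0.37 (SE 0.074) as a gene, and its transcripts in the mRNA table moved in opposite directions. The transcript of 4009 bases was 58.0, 54.0 and 53.8 CPM in the GM samples and 36.5, 33.3 and 32.8 CPM in the DM samples, and it fell by 0.69 (SE 0.072, edgeR adjusted p = 7.97e-06). The transcript of 2471 bases was 7.44, 5.58 and 7.83 CPM in the GM samples and 14.8, 11.7 and 13.5 CPM in the DM samples, and it rose by 0.94 (SE 0.148, edgeR adjusted p = 0.000213). By the same rule 32.3% of the 16352 transcripts tested rose and 32.3% fell.

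The short transcript held 11.1 ± 1.69% of the DIAPH1 transcript counts in the GM samples and 28.0 ± 1.76% in the DM samples, with no overlap (exact two-sided permutation p = 0.1, the smallest possible). The counts of both transcripts summed to 0.999 of the gene count, so they shared almost no reads, and the gene length was 6303 bases. The lengths of 2471 and 4009 bases together come close to this, so the 2 transcripts cover mostly separate parts of the gene model. The percentages above therefore compare parts of the gene, and whether both parts belong to the same RNA was not tested. The gene shares 60178 bases of its span with ARAP3 on the same strand, which had a mean of 91.3 counts in the GM samples and 21.7 in the DM samples. It also shares 3677 bases with RELL2 on the opposite strand, which had 160 counts in the GM samples and 266 in the DM samples. The sources used here do not say whether counting used strand, so reads of RELL2 and DIAPH1 may not have been told apart. Of the other 33 genes, 31 had 1 transcript in the mRNA table, while the 2 transcripts of ACTA1 and the 3 of ACTA2 each shared most of their reads.

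**Figure D4:**
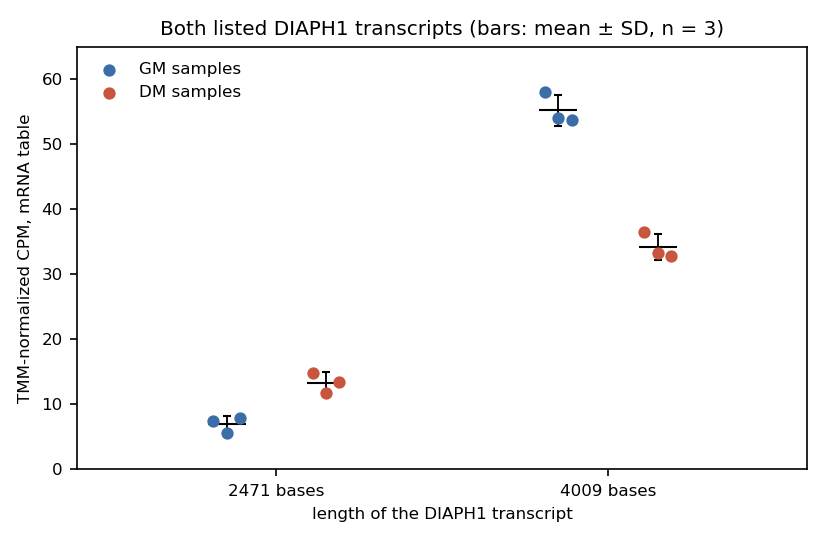
TMM-normalized CPM in the mRNA table (y axis) is shown for the DIAPH1 transcripts of 2471 and 4009 bases (x axis), with a point for each sample and the mean ± SD of 3 samples as bars. The short transcript is higher in every DM sample and the long transcript is lower in every DM sample.

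The 3 transcription factor genes of the pathway all fell by the adjusted p-value, against 31.4% of all genes tested, each by less than 2-fold. SRF (ENSBTAG00000012777, chromosome 23, 16747958 to 16754754, plus strand) was 124, 129 and 123 CPM in the GM samples and 72.2, 63.6 and 65.7 CPM in the DM samples. The groups did not overlap, and the log2 fold change was -0.90 (SE 0.067, edgeR adjusted p = 8.93e-07). The cofactors MKL2 and MKL1 fell by 0.48 (SE 0.080) and 0.34 (SE 0.068) on the log2 scale. Per length, MKL1 was 23.7 ± 1.29 RPKM and MKL2 7.41 ± 0.163 RPKM in the GM samples, and MKL2 was the lowest of the 34 genes in both groups.

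Related genes were compared by the log2 ratio of their RPKM within each sample, over 10 pairs. The ratio of CFL2 to CFL1 was -4.69 ± 0.161 in the GM samples and -3.20 ± 0.196 in the DM samples, and CFL1 was above CFL2 in every sample. The ratio of ACTN1 to ACTN4 was -1.08 ± 0.0214 in the GM samples and 0.06 ± 0.0211 in the DM samples, so ACTN1 was below ACTN4 in every GM sample and slightly above it in every DM sample. The ratio of ACTA1 to ACTC1 was -2.43 ± 0.412 and -0.51 ± 0.131. ACTC1 was above ACTA1 in every sample.

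The ratio of TAGLN to TAGLN2 was 0.50 ± 0.0179 in the GM samples and 1.09 ± 0.0915 in the DM samples. The ratio of ACTA2 to ACTG2 was -1.01 ± 0.0927 and -0.09 ± 0.0836. The ratio of ACTG1 to ACTB differed least, at 0.46 ± 0.0207 and 0.54 ± 0.0119. The ratios of ACTA2 to ACTB, CAPZA1 to CAPZB and ACTR2 to ACTR3 differed by 1.66, 0.43 and 0.31 (DM minus GM).

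For these 9 pairs the samples did not overlap, and the exact two-sided permutation test gave p = 0.1, with a Benjamini-Hochberg value of 0.111 over the 10 pairs. MKL1 to MKL2 was the pair that overlapped, with a ratio of 1.67 ± 0.108 in the GM samples and 1.81 ± 0.0919 in the DM samples (exact permutation p = 0.2). Pairs that share a gene are not independent of each other.

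**Figure D5:**
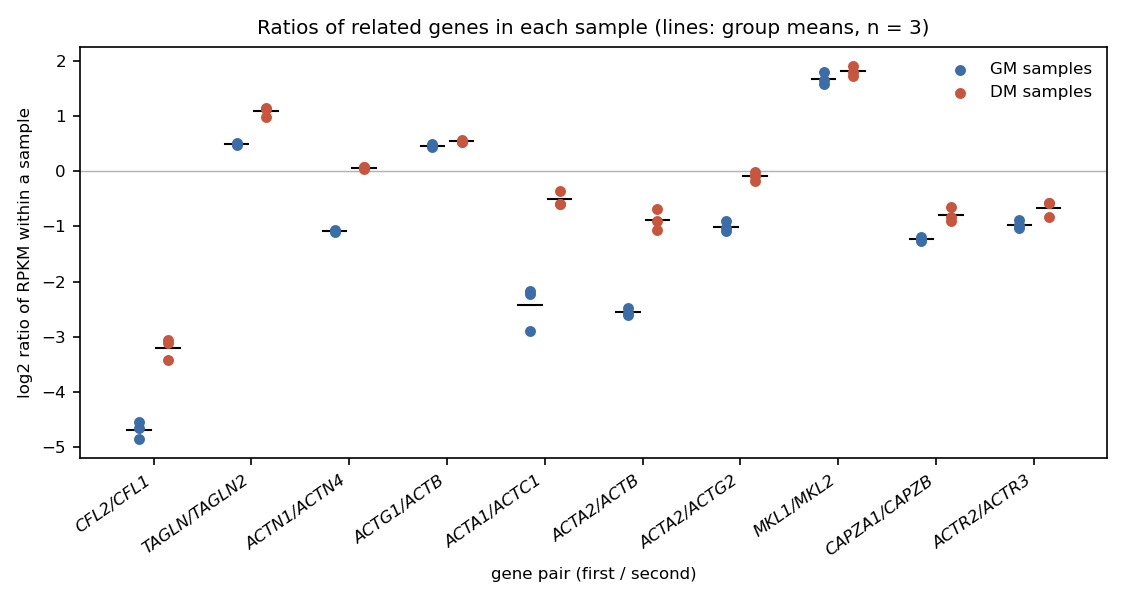
The log2 ratio of RPKM within a sample (y axis) is plotted for 10 pairs of related genes (x axis), with a point for each sample and a line at each group mean of 3 samples. The DM points lie above the GM points for 9 pairs, and they overlap for MKL1/MKL2.

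Of the 34 genes, 28 were above the 90th percentile of RPKM among the genes tested, and the lowest, MKL2, was at percentile 44.6. The median coefficient of variation between replicates was 3.27% in the GM samples and 7.92% in the DM samples, and it was larger in the DM samples for 29 genes. It was not computed over all genes tested, so the larger spread cannot be called particular to these genes. ACTB and FSCN1, which both fell, lie 41.4 kb apart on chromosome 25.

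Other genes of actin regulation and of SRF signaling, outside the 34, were taken from 3 lists. Among 82 such genes tested, counting the 2 entries of TPM1 apart, 12 rose and 9 fell at 2-fold. By the adjusted p-value alone 32 rose and 35 fell, and the median log2 fold change was -0.06. Of all genes tested, 15.0% rose and 10.3% fell at 2-fold, and 31.6% rose and 31.4% fell by the adjusted p-value alone. At 2-fold the 82 genes were near the shares of all genes. Of 48 other actin regulators, 6 rose and 6 fell at 2-fold. LMOD3, a leiomodin that nucleates thin filaments of the sarcomere, rose from 1.04 CPM to 30.1 CPM on average (log2 fold change 4.86, SE 0.304). ABRA, a muscle protein that promotes SRF signaling through actin, rose from 0.934 CPM to 19.4 CPM (log2 fold change 4.38, SE 0.332). ACTN2 and ACTN3, the sarcomeric alpha-actinins, were picked out after their values were seen, as relatives of ACTN1 and ACTN4. They rose by 3.92 (SE 0.313) and 3.31 (SE 0.197) on the log2 scale.

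Of 23 entries for 22 contractile targets of SRF and its cofactors, 2 rose and 2 fell at 2-fold. MYLK, the myosin light chain kinase gene, rose from 1.71 CPM to 23.6 CPM (log2 fold change 3.78, SE 0.215). The other one that rose was FHL1 and one that fell was SMTN, both named after their values were seen. MYOCD, the cofactor myocardin, had 26, 3 and 8 counts in the GM samples and 1, 1 and 0 in the DM samples, and its call (edgeR adjusted p = 0.0111) was lost without GM replicate 1 (edgeR adjusted p = 0.0711). TPM1, also named after its values were seen, had 2 entries that moved in opposite directions. Their log2 fold changes were 0.999 (SE 0.096) and -0.359 (SE 0.088), and both passed the adjusted p-value but not 2-fold.

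Of 11 immediate early targets, 4 rose and 1 fell at 2-fold. By the adjusted p-value alone 5 rose and 5 fell, and the median log2 fold change was -0.03. FOSB and FOS, subunits of the AP-1 factor that respond quickly to serum, rose by 2.94 (SE 0.243) and 2.26 (SE 0.141) on the log2 scale. FOSB averaged 0.742 CPM in the GM samples and 5.70 CPM in the DM samples, and FOS 11.3 CPM and 54.0 CPM. The others called at 2-fold were EGR2 and ANKRD1, which rose, and EGR3, which fell, all 3 named after their values were seen. JUNB, IER2, CYR61 and CTGF fell by less than 2-fold and were also named after their values were seen. SRF itself fell, as given above.

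Markers of other cells also moved with differentiation. All 5 fibroblast markers were detected, and they summed to 27002 to 27476 CPM in the GM samples and 65445 to 77956 CPM in the DM samples. COL1A1, the main fibrillar collagen gene, was 15287 ± 97.9 CPM in the GM samples and 44328 ± 2747 CPM in the DM samples. Endothelial markers summed to at most 3.03 CPM, adipocyte markers to at most 1.20 CPM and leukocyte markers to at most 10.2 CPM in any sample. CD14 carried most of the leukocyte sum and rose from 1.09 ± 0.203 CPM in the GM samples to 7.40 ± 2.57 CPM in the DM samples. The leukocyte marker CSF1R did not pass the test, and PTPRC had no more than 3 counts in any sample. The part of these cells in the cytoskeletal values was not tested.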

How the data were processed

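Raw counts per gene and per mRNA transcript were deposited by the authors without normalization, made from polyA RNA-seq libraries. The authors' methods name HISAT2 and a buffalo genome, while the submitters' processing notes list Bowtie 0.12.2 with the mouse builds mm8 and mm9, and the tables carry cattle Ensembl identifiers with no build. Reads mapped across species or between similar genes may therefore be undercounted. The deposited RPKM values scale the same counts by gene length and library total. The authors' lists of differential features hold their fold changes, p-values and q-values and were not used here. No sample column was left unmapped (0).

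The members and gene lists were chosen with earlier results of these data known. The test was the quasi-likelihood F test of edgeR 4.0.16 under R 4.3.3 (TMM normalization, Benjamini-Hochberg adjustment over 15576 genes with at least 10 counts in total). Calls used an adjusted p-value under 0.05, alone or with an absolute log2 fold change above 1. Standard errors came from the F statistic. Shares and ratios of RPKM were compared by exact two-sided permutation tests in scipy 1.17.1. The pipeline was checked on simulated data. DESeq2 1.42.0, other normalizations and filters, a replicate block, the mRNA table and leaving out each sample were the alternatives. TMM factors were 0.948 to 0.983 in DM samples and 1.03 to 1.04 in GM samples. All 34 genes could be named; of others, the 2 called with the largest change in each of 3 lists and 4 markers (MYOG, MYH3, COL1A1 and PCNA). The other cell type markers given with values, such as PAX7 and PDGFRB, were picked out after their values were seen. Same-numbered GM and DM samples did not deviate together (r of -0.0076, -0.0218 and -0.0105 for numbers 1, 2 and 3), so they were not paired. No sequences are printed, and genome sequence was not used here.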

Additional observations from a re-analysis of the deposited data

How the results depend on the processing

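Over 15 alternatives, counts of calls, actin class shares and pair ratios gave 256 values that stayed within 1.5 times the reported count or on the same side with the same direction, and 3 that moved. All 3 came from testing against a fold change of 2 itself, which asks more of each gene: 5 of the 34 genes were called in place of 8, 1 of them higher in place of 2, and 5 other pathway genes were lower in place of 9. With each sample left out in turn, 6 to 8 of the 34 genes were called at 2-fold (2 higher, 4 to 6 lower), 27 to 29 passed the adjusted p-value alone (5 to 7 higher, 22 to 23 lower), and 20 to 23 other pathway genes were called (12 to 14 higher, 8 to 10 lower). The low counts of 6 and 4 came without DM replicate 2. The difference in share (DM minus GM) ranged over the same settings from -34.8 to -30.5 percentage points for cytoplasmic, 27.2 to 31.7 for sarcomeric and 3.18 to 3.24 for smooth muscle actins. The smooth muscle difference was 5.23 with counts in place of RPKM, which leaves out gene length, and 4.46 with the RPKM of the mRNA table.

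Of single-gene values, 4 changed sign, none of them called under that setting: ACTN1 was -0.017 with library size alone, CNN1 0.0092 and PALLD 0.024 under the RPKM filter, and PALLD 0.026 without DM replicate 2 (its lowest with a sample left out was -0.088, without DM replicate 1). Another 8 passed the adjusted p-value where the reported value did not. ACTA2 did so with DESeq2 (0.0464), the RPKM filter (0.0249), the replicate block (0.0345) and without DM replicate 2 (0.0276). ACTN1 passed without DM replicate 2 (log2 fold change 0.17, 0.0281), TMSB10 with library size alone (0.0255) and without DM replicate 3 (0.00801), and CAPZA1 with library size alone (0.0414). The cause was not tested. Under library size alone the median was -0.07 over all genes and -0.48 over the 34 genes. With the replicate number as a block, 8 of the 34 genes were called at 2-fold and 28 by the adjusted p-value, and the paired exact test of shares cannot go below 0.25. The ratios of CNN1 and CNN2 to CNN3 were not run, since CNN3 was not found by symbol. The difference of the MKL1 to MKL2 ratio, 0.14 as reported, was 0.088 without GM replicate 1 and without DM replicate 3. With 3 samples a group, exact tests of single values cannot reach 0.05.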
